A study of Mus musculus with 3 samples.

Results

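The genes described here are the replication-type histone genes, chosen by name as the gene symbols that begin with Hist1h, Hist2h, Hist3h or Hist4h. They are 67 of the 32285 genes in the deposited tables: 6 for H1, 18 for H2A, 18 for H2B, 12 for H3 and 13 for H4. The family was taken up because its summed level differed between libraries in earlier work on these data, so the differences between libraries below are a description and carry no test. By their annotation 54 of the genes lie on chromosome 13, 10 on chromosome 3, 2 on chromosome 11 and 1 on chromosome 6. In all, 49 had at least 100 unique molecular identifiers (UMIs, the counted transcript molecules) over the kept cells. Another 15 had 3 to 90 UMIs, while Hist1h2bq, Hist1h2ba and Hist1h2aa had 0 in each library. The last 500 bases of Hist1h2bq are shared in full with Hist1h2br, so its 0 does not show that it was absent.

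The study sorted CD45int CD11b+ cells, a gate meant for microglia, from the brains of mice that all lacked Apoe, the gene for the lipid carrier apolipoprotein E. The 3 groups were sham-induced mice given PBS, mice induced to neuromyelitis optica spectrum disorder (NMOSD) and given a control peptide, and NMOSD mice given the peptide APOE130-149. Cells were taken on day 4, and the 4 mice of a group were pooled into 1 library. The sham group differs from the control peptide group both in the induction and in PBS against peptide, and these cannot be told apart.

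Replication-type histones package newly made DNA. H2A, H2B, H3 and H4 form the protein core of the nucleosome, and H1 binds the linker DNA where it enters and leaves that core. Their genes are known to be expressed mostly in S phase, and their mRNAs usually end just after a short stem-loop instead of a poly(A) tail. In cells that have stopped dividing, some of these genes are known to give polyadenylated mRNAs from sites further downstream, and the 3′ kit used here primes on poly(A).

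The stem-loop was searched for after the stop codon, as 16 bases: the arms GGNNCT and AGNNCC, paired over all 6 positions, around any loop of 4. It was found in 45 of the 67 genes (67.2%), against 122 of 21563 other protein-coding genes (0.566%) when it was allowed anywhere in the transcript. Of the 22 without a match, 15 have at most 2 bases annotated after the stop codon. The sequences of 8 genes that the results turn on are given 5′ to 3′ from GENCODE M21 on the GRCm38 build, with the stem-loop in capitals. The first 5 have long annotated ends and the last 3 short ones.
Hist1h1e: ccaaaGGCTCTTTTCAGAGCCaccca
Hist1h2ac: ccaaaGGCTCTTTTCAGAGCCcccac
Hist3h2a: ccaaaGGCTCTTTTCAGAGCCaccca
Hist1h3d: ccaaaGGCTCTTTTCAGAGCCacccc
Hist4h4: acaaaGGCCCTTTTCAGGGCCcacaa
Hist1h2ab: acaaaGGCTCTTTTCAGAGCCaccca
Hist1h3b: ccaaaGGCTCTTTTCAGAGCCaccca
Hist1h3c: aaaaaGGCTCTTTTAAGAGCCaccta
The form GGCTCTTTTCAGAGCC was present in 25 members of types H1, H2A, H2B and H3, and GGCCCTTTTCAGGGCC in 7 members, all H4. The 5 long-ended genes printed therefore carry a stem-loop, as the 3 short-ended ones do, and differ in what is annotated beyond it. This does not hold for every gene of either kind. No match was found in the long-ended Hist1h2bc and Hist2h2be, or in the short-ended Hist1h1a and Hist1h1b, the last with 0 bases annotated after the stop codon. Hist1h1e (chr13:23620629-23622558, minus strand) has 1153 annotated bases after the stem-loop, Hist1h2ac (chr13:23681467-23683948, minus) 2010 and Hist1h3d (chr13:23575763-23577011, plus) 752. Hist4h4 (chr6:136801553-136804415, minus) has 2445 and Hist3h2a (chr11:58954685-58956830, plus) 1643, and both have a poly(A) signal in their last 40 bases. The short ends are 11 bases for Hist1h2ab (chr13:23751126-23751598, plus), 51 for Hist1h3b (chr13:23752267-23752886, plus) and 74 for Hist1h3c (chr13:23744973-23745602, minus). Each of these 8 genes is a single exon, as are 62 of the 67.

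The kept cells numbered 4231 in the sham library, 5011 in the control peptide library and 2025 in the APOE130-149 library, with 32359749, 60801202 and 31742519 UMIs in all and medians of 7124, 7848 and 9991 UMIs per cell. Across the libraries 12 barcodes were shared. Levels are in CPM, a gene's UMIs scaled to a fixed total of UMIs over the cells named, and bracketed ranges are exact 95% intervals for counting error alone. The 7 microglial markers summed to 19297, 19231 and 19892 CPM, with none at 0. Markers of other cells also differed: the 5 neutrophil markers summed to 6286, 8469 and 9576 CPM and the 5 markers of choroid plexus and ependyma to 20.3, 1570 and 707 CPM. With 1 pool per group, the spread between mice is not in these intervals and no difference was tested. Since UMIs were counted at 3′ ends, levels are compared between libraries and cell classes; where genes are ordered, the order is of their UMIs and not of their mRNA.

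The summed level of the 67 genes was 580 CPM [572 to 589] in the sham library, 1086 CPM [1078 to 1095] in the control peptide library and 1232 CPM [1219 to 1244] in the APOE130-149 library. The control peptide library was thus 1.87-fold [1.84 to 1.90] above sham, and the APOE130-149 library 1.13-fold [1.12 to 1.15] above the control peptide library. The sham library stood apart, below both NMOSD libraries, which lay much closer to each other. Within these sums 12 genes held 75.2%, 78.1% and 78.0% of the histone UMIs. Hist1h1e alone supplied 112 CPM, or 22.2%, of the 505.8 CPM between the control peptide and sham libraries, followed by Hist1h2ac with 59.9 CPM (11.8%) and Hist1h3d with 49.2 CPM (9.73%).

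Counted gene by gene, 49 members reached 1 CPM in the sham or the control peptide library, and 32 of them were at least 1.5-fold higher in the control peptide library. Of all 12451 genes measured there, 5.33% were that much higher. A level at least 1.5-fold lower was found for 1 member, Hist2h3c2, against 3.53% of all genes, and 16 members lay between. The members' median log2 ratio was 0.87, beside -0.06 over all genes. With a minimum of 5 CPM, 19 of 29 members passed. For APOE130-149 over the control peptide, 2 of 49 members were 1.5-fold higher (2.87% of 12496 genes) and 2 lower (1.58%), with a median of 0.15 beside 0.02. These 4, named after their values were seen, were Hist1h2br and Hist2h3c1, at 1.87-fold and 1.53-fold, and Hist1h3i and Hist1h2bk, at ratios of 0.649 and 0.631. For APOE130-149 over sham, 38 of 48 were higher (6.13% of 12517 genes) and 0 lower (2.78%). Both NMOSD libraries are compared with the same sham library, so the counts of 32 and 38 are not separate evidence. Sham was the lowest of the 3 libraries in 44 of the 49 genes with at least 100 UMIs, against 30.3% of all 12564 such genes. It was the highest in Hist3h2a, Hist2h3c2 and Hist1h4n.

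**Figure D1:**
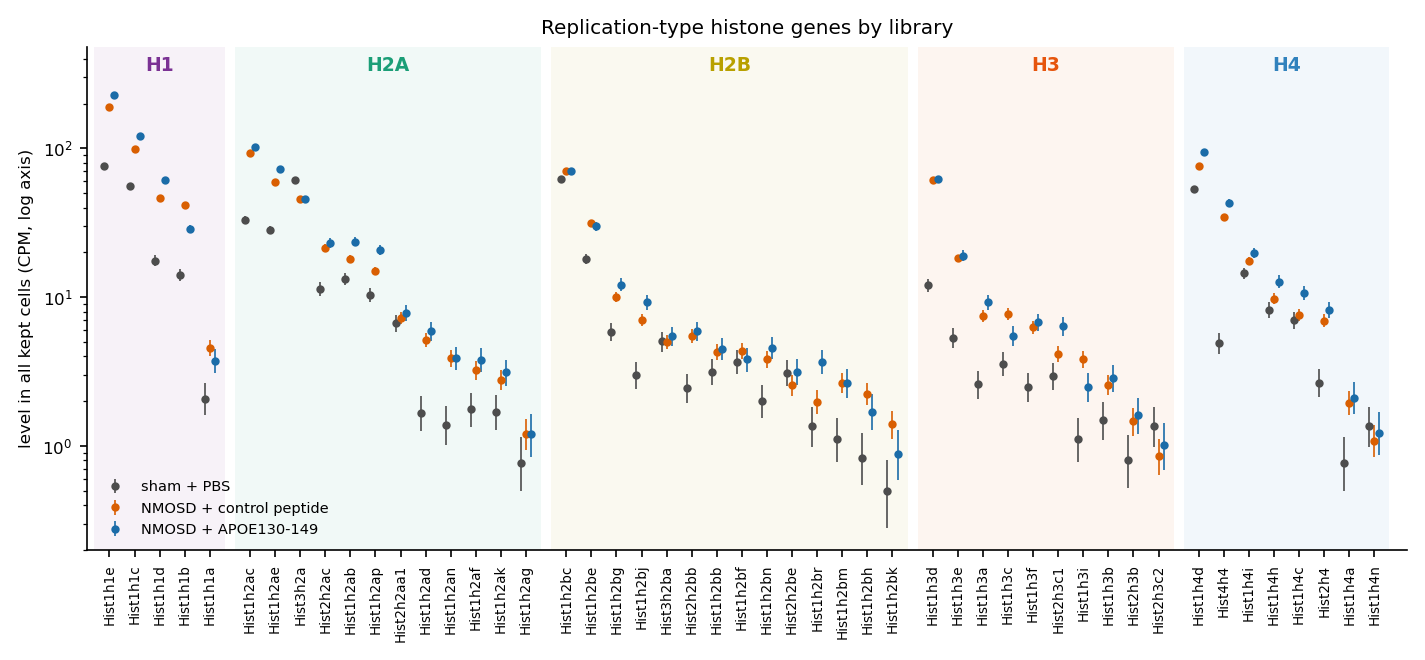
Level of each of the 49 genes with at least 100 UMIs in the 3 libraries, in CPM over all kept cells on a log axis, grouped by histone type and ordered by summed CPM, with 95% counting intervals. The sham points (grey) lie lowest in 44 genes; Hist3h2a, Hist2h3c2 and Hist1h4n are the genes in which they lie highest.

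Among the linker histones, all 5 measured H1 genes were over 1.5-fold higher in the control peptide library than in sham. Their sum was 166, 380 and 445 CPM in the sham, control peptide and APOE130-149 libraries, a control peptide to sham ratio of 2.30 [2.23 to 2.36]. Hist1h1e was at 76.5, 189 and 229 CPM, which put control peptide 2.47-fold [2.36 to 2.58] above sham. Its annotation overlaps that of Hist1h2be on the same strand, and 99.1% of the 60-base words in its last 500 bases are shared with other genes, so its count is uncertain. Hist1h1c had 55.5, 98.5 and 121 CPM (1.78-fold [1.68 to 1.87]) and Hist1h1d 17.6, 46.7 and 61.3 CPM (2.65-fold [2.42 to 2.91]). These 3 genes shared 1 order, with sham lowest and APOE130-149 highest. Hist1h1b broke it: its levels were 14.1, 41.6 and 28.8 CPM, 2.96-fold [2.67 to 3.27] higher in control peptide than in sham and then 0.693 [0.642 to 0.748] of that level in APOE130-149. The first ratio of Hist1h1b ranged from 2.65 to 6.73 over other settings, and was highest without the 0.25% of cells with most histone UMIs. In the sham library, the 0.25% of cells with most Hist1h1b UMIs, which need not be the same cells, held 74.3% of its UMIs. Hist1h1a, with the fewest UMIs of the 5, had 2.07, 4.56 and 3.72 CPM.

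The H2A genes, whose product pairs with H2B in the nucleosome, summed to 173, 278 and 315 CPM, and 8 of 12 measured were 1.5-fold higher in control peptide than in sham. Hist1h2ac showed 32.8, 92.7 and 102 CPM, a ratio of 2.82 [2.65 to 3.02]. Hist1h2ae had 28.2, 59.5 and 72.7 CPM (2.11 [1.96 to 2.27]). Both genes were low in sham alone. Hist3h2a, on chromosome 11 away from the large cluster, went the other way with 61.2, 46.0 and 45.8 CPM. Its control peptide level was 0.752 [0.709 to 0.796] of sham, and between 0.670 and 0.791 over the other settings. Hist3h2a overlaps Trim17 on the same strand. The H2B sum was 113, 155 and 159 CPM, the smallest ratio of the 5 types at 1.36, with 8 of 14 genes past 1.5-fold. Its gene with most UMIs, Hist1h2bc, barely differed at 62.5, 70.9 and 70.5 CPM (1.13 [1.08 to 1.20]), while Hist1h2be had 18.1, 31.4 and 29.9 CPM (1.74 [1.58 to 1.91]).

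H3 and H4 form the tetramer at the centre of the nucleosome. The H3 sum had the largest ratio of the types: 34.1, 115 and 118 CPM, 3.37-fold [3.16 to 3.59] in control peptide over sham, with 8 of 10 genes past 1.5-fold. Hist1h3d carried most of this, at 12.1, 61.3 and 61.8 CPM, 5.08-fold [4.58 to 5.66] above sham and 1.01 [0.955 to 1.07] between the NMOSD libraries. It ranged from 5.08-fold to 5.58-fold over the other settings. Hist1h3e had 5.35, 18.2 and 19.0 CPM and Hist1h3a 2.60, 7.47 and 9.26 CPM, in the same low-sham pattern. Hist1h3i, a gene of few UMIs, had 1.11, 3.83 and 2.49 CPM (3.44-fold [2.42 to 5.04], and 7.54-fold in cells thinned to 2000 UMIs each). Hist2h3c2 had the lowest ratio of all measured members, 0.629 [0.413 to 0.962], at 1.36, 0.855 and 1.01 CPM.

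The H4 sum was 94.6, 158 and 195 CPM, and its genes were uneven: 3 of 8 passed 1.5-fold. Hist4h4, which lies alone on chromosome 6, had the highest ratio of any member, with 4.91, 34.4 and 43.2 CPM, or 6.99-fold [5.95 to 8.27] over sham and 5.47-fold to 8.52-fold over the other settings. Hist1h4d, the H4 gene with most UMIs, had 53.4, 76.6 and 94.9 CPM (1.43 [1.36 to 1.52]). Hist1h4n, with 1.36, 1.09 and 1.23 CPM, was among the 3 lowest ratios (0.798 [0.537 to 1.20]). The H4 genes encode almost identical proteins, so how well their counts separate them depends on their ends. Of the last 500 bases of Hist4h4, 0.680% of 60-base words occur in another gene, and of Hist1h3d 0%. Ends shared in full were found for Hist2h2aa1, Hist2h3b, Hist2h3c1 and Hist2h2bb, and for Hist2h2aa2 and Hist1h2bq with under 100 UMIs. The counting could split or drop reads of these ends. Other ends were shared in large part, such as those of Hist1h2ap (92.9%), Hist1h2af (91.8%), Hist1h2an (85.3%), Hist1h3i (84.4%) and Hist1h2br (54.6%, with Hist1h2bq), so their counts are uncertain too.

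Cells were then separated by UMIs of Mki67 and Top2a, a proliferation marker and a topoisomerase of dividing cells. Cells with at least 1 such UMI numbered 225, 442 and 197, held 8.35%, 19.5% and 21.4% of all UMIs, and were deeper than the rest, with medians of 8816, 19012 and 22487 against 7060, 7581 and 9566 UMIs. A deeper cell reaches 1 UMI more easily, so this class does not hold the same cells in each library. Its summed histone level was 1566, 1925 and 1819 CPM, against 491, 884 and 1072 CPM in cells without. Within a library the first was 3.19-fold [3.08 to 3.30], 2.18-fold [2.14 to 2.21] and 1.70-fold [1.66 to 1.73] the second. The sham value rested on few cells: it was 1.65-fold without the 0.25% of cells with most histone UMIs, and 5.02-fold when 2 cycle UMIs were required. After thinning to 2000 UMIs, cells held means of 0.998, 1.76 and 2.09 histone UMIs without cycle UMIs and 2.57, 4.23 and 4.36 with them.

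Within a class of cells, the summed level differed most between libraries where cycle UMIs were few. In cells with none, the summed level in control peptide was 1.80-fold [1.77 to 1.83] that in sham. At 1 cycle UMI the levels were 500, 823 and 1084 CPM, and at 2 to 4 they were 885, 980 and 1122 CPM. At 5 or more, in 53, 185 and 70 cells, they were 3014, 3014 and 2841 CPM, a control peptide to sham ratio of 1.0 [0.963 to 1.04]. That sum held opposite differences by type: H1 was at 783, 1044 and 841 CPM and H2A at 1127, 880 and 958 CPM. The order of the libraries seen at 0 and 1 cycle UMIs was not present at 5 or more. The cells of that class were not alike across libraries: their median depth was 17124, 24503 and 26117 UMIs, and Mki67 was at 932, 538 and 430 CPM. Microglial markers summed there to 11788, 13699 and 15333 CPM and neutrophil markers to 21332, 17444 and 19622 CPM. Monocyte markers summed to 1266, 1056 and 804 CPM and erythroid markers to 0.920, 1147 and 3.91 CPM. Of 25 S phase genes, 15 were at least 1.5-fold lower in control peptide than in sham within the class and 25 in APOE130-149 than in sham (median log2 ratios -0.61 and -1.20). For 18 mitosis genes these counts were 10 and 18. Cells without cycle UMIs supplied 51.8% of the difference between control peptide and sham and 90.3% of that between APOE130-149 and control peptide. Cells with cycle UMIs supplied the other 48.2% and 9.67%. The share of all UMIs in cells with 5 or more also differed, at 3.36%, 9.54% and 8.86%. Other markers moved with this split: in cells with cycle UMIs neutrophil markers summed to 15416, 17160 and 14378 CPM, against 5455, 6369 and 8271 CPM without, and microglial markers to 14242, 15296 and 17284 against 19757, 20182 and 20601 CPM. Monocyte markers summed to 768, 838 and 543 CPM with cycle UMIs and 188, 236 and 281 CPM without. Erythroid markers, at 0.370, 575 and 8.70 CPM, and B lineage markers, at 1512, 266 and 278 CPM, also differed between libraries in cells with cycle UMIs, and 2 of the 3 erythroid and 2 of the 6 B lineage markers were at 0 there in sham. Their part in the histone levels was not tested.

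**Figure D2:**
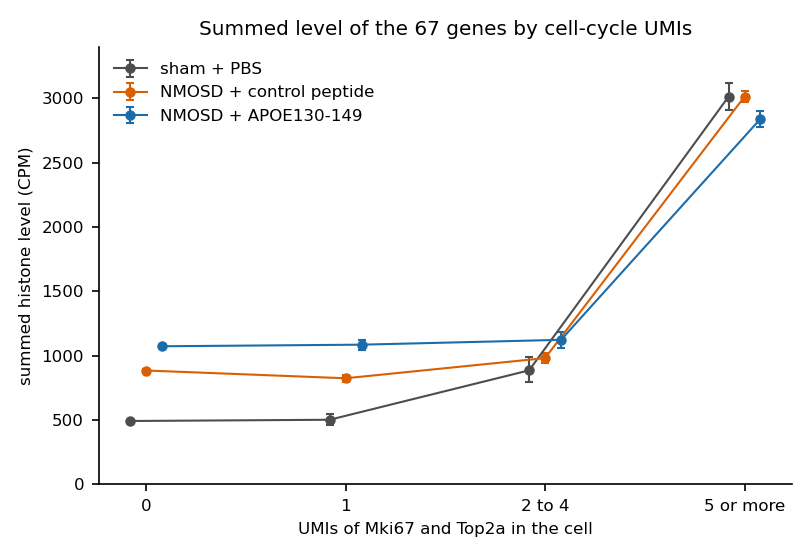
Summed level of the 67 genes (CPM, linear axis from 0) in cells with 0, 1, 2 to 4, and 5 or more UMIs of Mki67 and Top2a, by library, with 95% counting intervals. The libraries lie apart at 0 UMIs (491, 884 and 1072 CPM) and close together at 5 or more (3014, 3014 and 2841 CPM).

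A split of the cells with cycle UMIs by S phase genes gave the same kind of picture. Over 11 genes of DNA replication, such as Rrm2, Tyms and Cdc6, cells with no UMI had 576, 965 and 1127 CPM of histone mRNA and cells with 1 had 724, 974 and 1034 CPM. Cells with 2 or more had 2786, 2313 and 2197 CPM. In that last class sham was the highest library, and control peptide was 0.830 [0.800 to 0.862] of it.

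By type, H3 had the highest ratio of control peptide to sham in cells without cycle UMIs, at 23.6, 91.1 and 96.9 CPM (3.87-fold). H1 followed with 145, 311 and 408 CPM (2.15-fold), then H4 with 84.1, 138 and 177 CPM (1.64-fold), H2A with 137, 215 and 248 CPM (1.57-fold) and H2B with 101, 128 and 142 CPM (1.26-fold). In these cells 24 of 43 measured members were at least 1.5-fold higher in control peptide than in sham, against 4.84% of 12366 genes, and 1 lower, against 3.60%. Their median log2 ratio was 0.69 beside -0.07 over all genes.

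**Figure D3:**
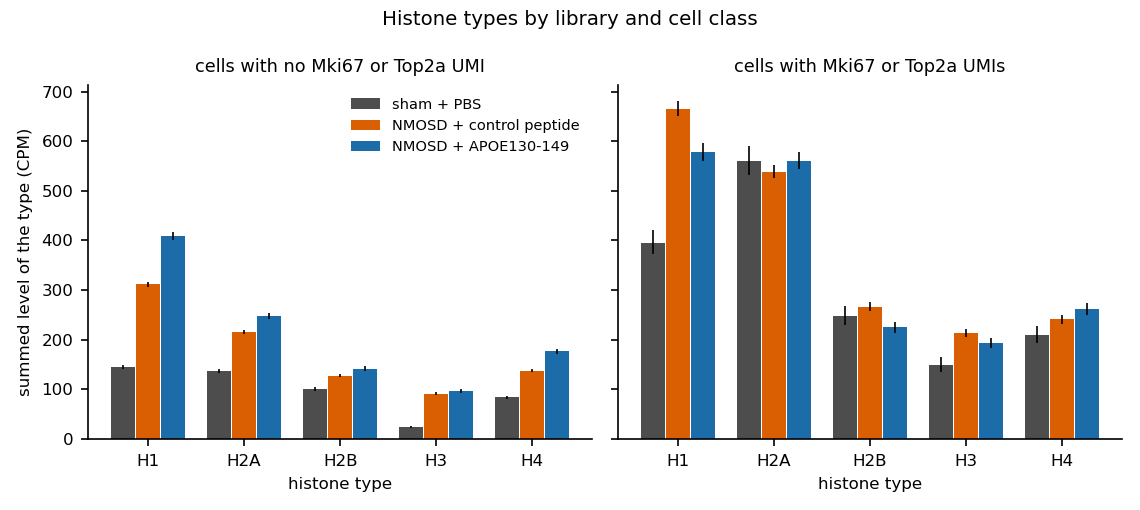
Summed CPM of each histone type in cells without (left) and with (right) UMIs of Mki67 or Top2a, by library; bars start at 0 and carry 95% counting intervals. Without cycle UMIs sham is lowest in all 5 types, whereas with them H2A is nearly level between libraries and H1 is highest in the control peptide library.

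Members differed widely in how much they were confined to cells with cycle UMIs. At least 1.5-fold higher levels in those cells were found for 51 of 59 members in sham (15.3% of all genes), 44 of 58 in control peptide (10.7%) and 36 of 55 in APOE130-149 (8.72%). At least 5-fold higher levels in all 3 libraries were found for 15 of the 49 named members (1.29% of all genes), and under 2-fold in all 3 for 11 (91.4%). Both limits were set after the values were seen. The 15 were Hist1h1a, Hist1h1b, Hist1h2ab, Hist1h2af, Hist1h2ag, Hist1h2ak, Hist1h2an, Hist1h2ap, Hist1h2bh, Hist1h2bk, Hist1h2bm, Hist1h3b, Hist1h3c, Hist1h3f and Hist1h3i. The 11 were Hist1h1c, Hist1h1e, Hist1h2ac, Hist1h2bc, Hist2h2be, Hist2h3c1, Hist2h3c2, Hist2h4, Hist3h2a, Hist3h2ba and Hist4h4. All 15 lie in the Hist1 cluster on chromosome 13, which holds 54 of the 67 members and so most of those that could be grouped. Of the 11, 7 lie on chromosomes 3, 6 and 11. Many of the 15 share much of their ends with other genes. The shared words ran from 0% for Hist1h1b to 92.9% for Hist1h2ap, so the counts do not fully separate these genes.

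Hist1h1b, a linker histone of the first group beside Hist1h1a, had 1.69, 3.84 and 5.33 CPM without cycle UMIs and 150, 198 and 115 CPM with them. Of its UMIs, 89.0%, 92.6% and 85.4% were in the latter cells. Hist1h3c went from 0.303, 0.265 and 0.641 CPM to 39.3, 38.8 and 23.3 CPM. Hist1h2ab went from 4.62, 4.04 and 5.89 CPM to 109, 75.6 and 88.7 CPM. Most of this level came from the cells with 5 or more cycle UMIs: of the 15 genes' UMIs in cells with any, 1252 of 1325 in sham, 5606 of 5861 in control peptide and 2468 of 2704 in APOE130-149 lay there. Hist1h3b had 0 UMIs in the control peptide cells without cycle UMIs and 13.3 CPM in those with them, at least 217-fold higher when the former is set to 3 UMIs over the library's cells.

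The second group differed little or moderately with cycle UMIs. Hist4h4 had 4.96, 36.9 and 43.9 CPM in cells without cycle UMIs and 4.44, 24.0 and 40.5 CPM in cells with them. Hist1h3d, just outside the group because its sham ratio was 2.44, had 10.8, 61.0 and 59.3 CPM without and 26.3, 62.3 and 71.2 CPM with. Hist3h2a had 61.7, 47.7 and 46.5 CPM without and 55.2, 39.0 and 43.2 CPM with. For Hist4h4 the libraries therefore kept their order in both cell classes, with sham far below. Hist1h1e had 72.5, 171 and 222 CPM without and 120, 264 and 255 CPM with, which is 1.66-fold, 1.55-fold and 1.15-fold.

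The groups were then compared between libraries. Summed over all cells, the 15 genes had 56.5, 117 and 112 CPM (control peptide 2.07-fold sham), but within cells with cycle UMIs they had 491, 495 and 399 CPM (1.01 [0.951 to 1.07]). In cells without cycle UMIs they had 17.0, 25.6 and 33.9 CPM, 1.5-fold [1.36 to 1.67] in control peptide over sham and 1.99-fold [1.78 to 2.23] in APOE130-149 over sham. The 11 genes had 308, 551 and 636 CPM over all cells (1.79-fold), 300, 525 and 626 CPM without cycle UMIs (1.75-fold) and 403, 657 and 671 CPM with them (1.63-fold). The 23 genes between had 211, 412 and 478 CPM over all cells (1.95-fold), 171, 329 and 408 CPM without cycle UMIs (1.93-fold) and 651, 752 and 735 CPM with them (1.15-fold). All 3 groups were thus lower in sham among cells without cycle UMIs. Among cells with them, the ratio was 1.01 for the 15 genes, 1.63 for the 11 and 1.15 for the 23. In sham, 1252 of the 1325 UMIs of the 15 genes there came from the 53 cells with 5 or more cycle UMIs. The intervals hold neither this clustering in few cells nor the spread between mice, so they do not decide whether libraries differ. At 5 or more cycle UMIs the groups went opposite ways. The ratio was 0.839 [0.789 to 0.893] for the 15 genes, 1.61 [1.47 to 1.76] for the 11 and 0.917 [0.867 to 0.972] for the 23.

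The annotated end of the transcript, which the grouping did not use, went with this difference. Among the 49 named genes, 25 have at most 150 bases annotated after the stop codon, a limit set after the values were seen, and 24 have more. A poly(A) signal in the last 40 bases was present in 1 of the 25 and 12 of the 24. The short-ended genes had a median of 51.9%, 67.5% and 60.6% of their UMIs in cells with cycle UMIs (range in control peptide 21.7% to 100%), and the long-ended genes 16.3%, 26.5% and 25.3% (13.6% to 65.5%). The median ratio of control peptide to sham was 1.89 for short and 1.76 for long ends. In cells without cycle UMIs, among genes with at least 10 UMIs in sham there, it was 1.51 over 19 short-ended and 1.71 over 24 long-ended genes. The ranges overlap. Hist1h2bh, with 1258 bases after its stop codon and 63.0%, 60.3% and 64.8% of its UMIs in cells with cycle UMIs, and Hist1h3f, with 417 bases and 56.8%, 65.5% and 67%, are long-ended yet among the 15 genes. The short-ended Hist1h2ad, with 89 bases, had 24.1%, 21.7% and 26.1%, and Hist1h4n, with 80 bases, 15.9%, 25.8% and 25.6%. Hist1h2ae stood between, with 199 bases after its stop codon and 51.0%, 50.4% and 43.7% of its UMIs in cells with cycle UMIs. Several entries, among them Hist1h1b, are annotated with 0 bases after the stop codon, and reads beyond an annotated end would not be counted to the gene.

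**Figure D4:**
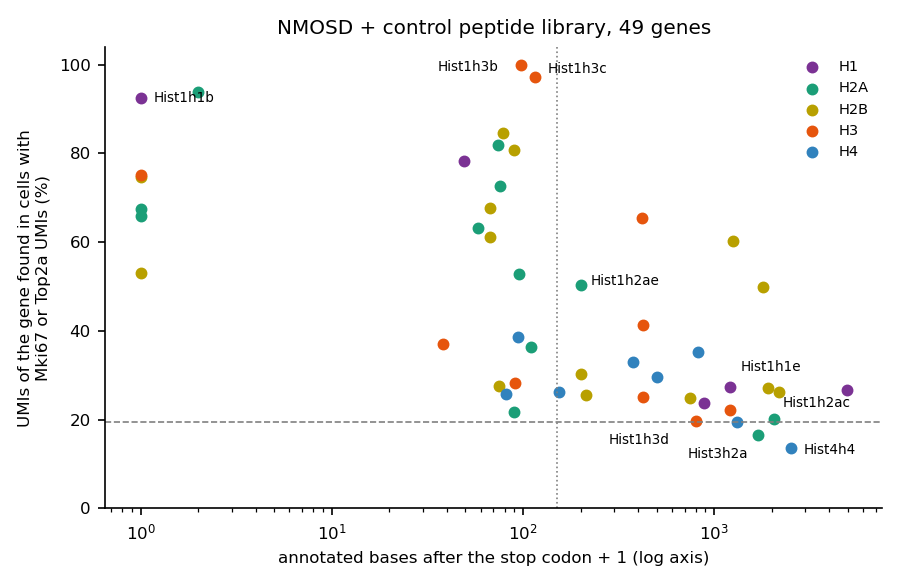
Percent of each gene's UMIs found in cells with Mki67 or Top2a UMIs in the control peptide library, against annotated bases after the stop codon plus 1 (log axis), coloured by histone type. The dashed line is the share of all UMIs in those cells (19.5%) and the dotted line the limit of 150 bases. The long-ended Hist4h4, Hist3h2a and Hist1h3d lie near or below the dashed line, whereas the median of the 24 long-ended genes (26.5%) lies above it.

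The libraries also differed in immediate early genes, rapidly induced regulators such as Fos, Jun and Egr1. Cells without cycle UMIs were divided at 0.2% of UMIs from 12 such genes. The high class held 852 of 4006 sham cells, 4055 of 4569 control peptide cells and 1695 of 1828 APOE130-149 cells. Over all cells, 813, 307 and 75 lay near the limit, between 0.15% and 0.25%, so these are ranges of 1 measure and not cell types. Summed histone levels were 435, 514 and 435 CPM in the low class and 685, 916 and 1106 CPM in the high class, that is 1.57-fold, 1.78-fold and 2.54-fold higher in the high class of each library.

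Set beside the 1.80-fold ratio over all cells without cycle UMIs, control peptide over sham was 1.18 [1.12 to 1.24] within the low class and 1.34 [1.30 to 1.38] within the high class. The low class held more of other cell types in the NMOSD libraries: choroid plexus and ependyma markers summed there to 27.9, 21358 and 11609 CPM and neutrophil markers to 4042, 21072 and 49081 CPM. The high class was not alike across libraries either. Fos was there at 409, 569 and 968 CPM, neutrophil markers at 10415, 5093 and 6100 CPM and monocyte markers at 376, 191 and 226 CPM. Neither ratio therefore compares like cells at a matched immediate early level. With cells limited to those with at least 3 UMIs over P2ry12, Tmem119, Siglech and Sall1, a choice added after the data were seen, levels were 437, 466 and 430 CPM in the low class (3029, 424 and 94 cells). They were 694, 919 and 1117 CPM in the high class (789, 3931 and 1627 cells). The ratio of control peptide to sham was then 1.07 [1.01 to 1.13] and 1.32 [1.28 to 1.37]. Choroid plexus and ependyma markers still summed to 1.19, 9841 and 10349 CPM in that low class. Neutrophil markers summed there to 2387.4, 12325.5 and 16551.5 CPM, monocyte markers to 81.8, 418 and 697 CPM and microglial markers to 20284.3, 15681.1 and 13512.5 CPM. In the high class with the limit, neutrophil markers summed to 4498, 3530 and 3383 CPM. The part of these other cells was not tested.

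By type, the high class over the low class of the same library was 2.07, 1.97 and 3.44 for H1, 1.41, 3.0 and 3.7 for H2A, 1.62, 4.64 and 5.80 for H3 and 1.65, 2.22 and 2.44 for H4. H2B did not share this, at 1.11 [1.02 to 1.21], 0.654 [0.606 to 0.708] and 0.942 [0.813 to 1.10]. These values are without the limit on microglial marker UMIs. With it H2B was at 1.13 [1.04 to 1.23], 0.842 [0.766 to 0.926] and 0.866 [0.736 to 1.02], and H1 at 2.07, 2.04 and 4.07. The next 5 genes were picked after their values were seen, as examples of both patterns. Their levels are without the marker limit, and the part of other cell types in them was not tested. Hist1h3d was at 9.10, 6.13 and 7.93 CPM in the low class and 16.6, 65.8 and 62.0 CPM in the high class. Hist4h4 went from 3.34, 2.81 and 7.14 CPM to 10.7, 39.8 and 45.9 CPM, and Hist1h2ac from 25.6, 10.2 and 8.73 CPM to 55.4, 99.1 and 105 CPM. In the low class these 3 genes were no higher in control peptide than in sham, and in the high class all 3 were higher in control peptide than in sham. Hist1h2bc ran the other way in the NMOSD libraries, from 60.4, 157 and 124 CPM to 56.9, 58.2 and 65.5 CPM. Hist3h2a had 62.3, 34.0 and 30.9 CPM in the low class and 59.8, 48.9 and 47.3 CPM in the high class.

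**Figure D5:**
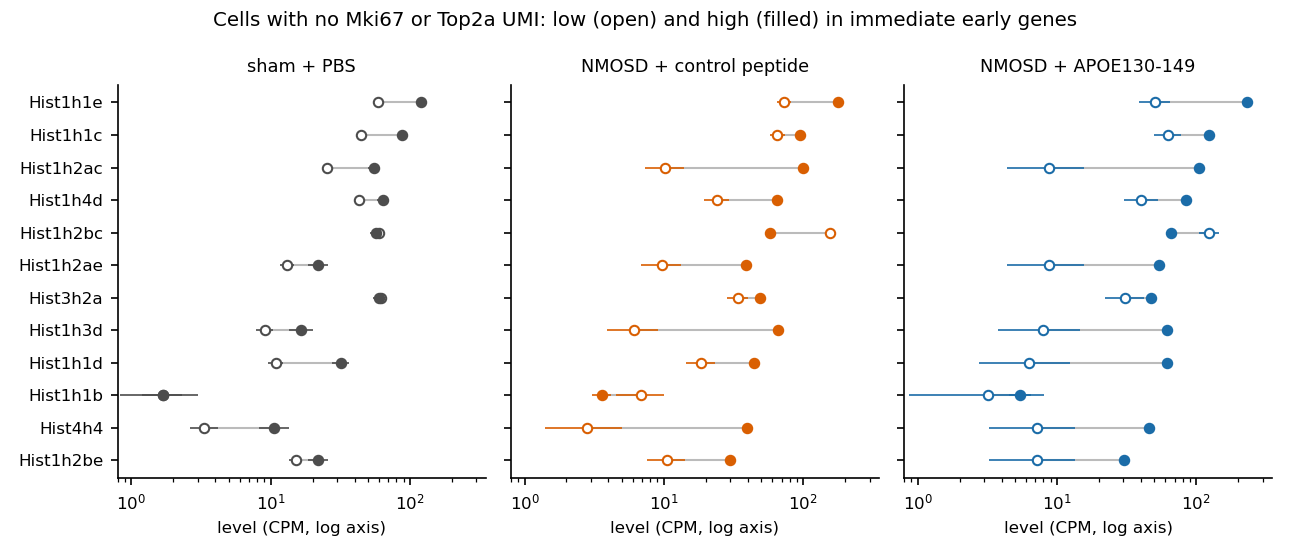
Level (CPM, log axis) of the 12 members with the highest summed CPM in cells without Mki67 or Top2a UMIs, for cells low (open points) and high (filled points) in immediate early genes, 1 panel per library, with 95% counting intervals. Hist1h3d, Hist4h4 and Hist1h2ac show wide steps in the NMOSD libraries, whereas Hist1h2bc lies lower in the high class there.

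Other genes of the histone system were read from lists of related function. Of the histone variants encoded outside these clusters, 2 of 10 measured were 1.5-fold higher in control peptide than in sham (median log2 ratio 0.28). They were H3f3b, which encodes the replacement histone H3.3, at 887, 1922 and 2089 CPM (2.17-fold), and Cenpa, the centromeric H3, at 18.0, 27.4 and 22.6 CPM (1.52-fold). H3f3a, the other gene for H3.3, had 570, 599 and 593 CPM. Of 16 histone mRNA processing genes 0 were 1.5-fold higher or lower (median -0.09). Slbp, which binds the stem-loop, had 67.6, 58.0 and 60.2 CPM, and Npat, a coactivator of histone gene transcription, 19.1, 17.4 and 17.5 CPM. Of 18 histone chaperones 0 passed in either direction (median 0.04).

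Of 25 S phase genes 5 were 1.5-fold higher in control peptide than in sham (median 0.28), and of 18 mitosis genes 13 were (median 0.64). In cells without cycle UMIs, a class defined by 2 of the mitosis genes, 3 of 21 S phase genes were higher and 2 lower, and 0 of 9 mitosis genes in either direction. From control peptide to APOE130-149, 5 S phase genes were lower and 0 higher (median -0.26), and 1 mitosis gene was lower (median -0.37), beside the histone members' median of 0.15.

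Promoters were matched for 62 members in RefSeq on the GRCm38.p6 build, as 300-base windows, and motifs were searched on both strands. CCAAT was present in 53 (85.5%), against 37.9% of 27025 promoters: it was in all matched H1, H2A, H2B and H3 windows and in 3 of 12 for H4. TATAAA was present in 35 (56.5%, against 14.2%). The octamer ATTTGCAT was present in 13 (21.0%, against 1.75%), of which 7 were H2A and 6 H2B. TGANTCA, the AP-1 motif of Fos and Jun proteins, was in 3 (4.84%, against 7.93%), and TGACGTCA, the cyclic AMP response element, in 4 (6.45%, against 1.88%). Windows of neighbouring H2A and H2B genes can overlap, so these counts are of genes and not of separate sites. Hist1h2ae and Hist1h2bg share an octamer, and Hist1h2ag and Hist1h2bj a TGACGTCA. The 150 bases before the start are shown for Hist1h3d and Hist4h4, which had the highest ratios between libraries, and for Hist1h1b, which followed the cycle UMIs, with these motifs in capitals.
Hist1h3d: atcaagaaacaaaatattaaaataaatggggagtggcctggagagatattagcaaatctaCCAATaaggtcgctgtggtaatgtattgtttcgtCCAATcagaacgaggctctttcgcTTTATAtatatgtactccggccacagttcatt
Hist4h4: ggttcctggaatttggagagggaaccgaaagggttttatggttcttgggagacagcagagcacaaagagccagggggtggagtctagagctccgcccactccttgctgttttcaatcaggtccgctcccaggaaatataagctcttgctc
Hist1h1b: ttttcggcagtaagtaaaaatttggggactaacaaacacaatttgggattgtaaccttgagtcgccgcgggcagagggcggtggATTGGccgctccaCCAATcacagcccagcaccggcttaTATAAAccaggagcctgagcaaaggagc
They lie at chr13:23575613-23575762 (plus strand), chr6:136804432-136804581 (minus) and chr13:21780626-21780775 (minus). Hist1h3d and Hist1h1b hold CCAAT and TATAAA in their windows, and Hist1h1b also a TGANTCA. Hist4h4 holds none of the 5 motifs. A match is a description of the sequence and not of binding, and no match says only that these letters are not in the window.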

How the data were processed

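Single-cell suspensions were sequenced with the 10x 3′ v2 kit, per the labels' protocols. The authors deposited raw UMI counts per gene and cell; the submitters' processing notes name Cell Ranger 5.0.1, Seurat 4.3.0 and the mm10 build, whereas the count matrices were written by cellranger 7.0.1, per the file headers. The sources used here do not give the strand and intron settings. Cells under 500 genes or over 10% of UMIs from mt- genes were left out, which removed 9.48%, 5.56% and 6.90% of the 4674, 5306 and 2175 barcodes. No doublet caller was run; doublets were kept, and cells above 2 times their library's median UMIs were left out as an alternative.

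UMIs were summed over cells per library and given as CPM with exact Poisson intervals, and ratios with exact conditional (Clopper-Pearson) intervals. With 1 pool of 4 mice per group no test was possible; a gene was counted as higher or lower at 1.5-fold, among genes at 1 CPM or more in either group. A count of 0 allows up to 3 UMIs, or 0.0927, 0.0493 and 0.0945 CPM over all cells of the sham, control peptide and APOE130-149 libraries. Members with at least 100 UMIs are named, with full ratios for the 12 with the highest summed CPM and for the 3 highest and 3 lowest ratios of control peptide to sham. The members, gene lists and classes were chosen with earlier results of these data known. The groups by cycle ratio, the class of 5 or more cycle UMIs, the 150-base limit and the marker limit on the immediate early classes were chosen after the values were seen.

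Annotation and stem-loops came from GENCODE M21 (GRCm38, the mm10 assembly), matching all 67 members, and promoters from RefSeq (GRCm38.p6). Python 3.11.15, numpy 2.4.6, scipy 1.17.1, pandas 2.3.3 and matplotlib 3.10.9 were used. The ratio intervals and the 1.5-fold rule were checked on simulated Poisson counts, which lack the clustering of UMIs in few cells. Cell classes and sequence searches were not checked on simulated data.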

Additional observations from a re-analysis of the deposited data

How the results depend on the processing

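None of the alternatives run changed the direction of a summed ratio or of the 15 members recomputed under them, and the factors of the median-of-ratios and TMM scalings, which are divided out, lay between -0.07 and 0.03 on the log2 scale. Log2 ratios that moved by more than counting error were as follows. For control peptide over sham in all cells (0.90 as reported), the ratio was 0.96 without the 0.25% of cells with most histone UMIs, 0.88 in thinned cells, 0.83 without the member with most UMIs, 0.97 by median of ratios and 0.98 by TMM. For APOE130-149 over control peptide (0.18), it was 0.26 without cells above 2 times the median UMIs, 0.24 with each cell weighted alike, 0.22 without the top 0.25% of cells, 0.23 in cells with microglial marker UMIs, 0.22 in thinned cells, 0.16 without the member with most UMIs, and 0.15 under either scaling. For APOE130-149 over sham (1.09), the same settings gave 1.15, 1.17, 1.18 and 1.12, with 0.99 without the member with most UMIs and 1.11 by TMM. In cells without cycle UMIs (0.85), control peptide over sham was 0.82 in thinned cells, 0.77 without the member with most UMIs and 0.93 under either scaling. For cells with over cells without cycle UMIs, the settings in turn were no cells above 2 times the median, cells weighted alike, no top 0.25% of cells, microglial marker UMIs, thinned cells, no member with most UMIs and a limit of 2 cycle UMIs. They gave 0.89, 1.16, 0.72, 1.59, 1.37, 1.79 and 2.33 in sham (1.67 as reported), 1.29, 1.22, 0.76, 0.99, 1.26, 1.22 and 1.48 in control peptide (1.12), and 1.02, 0.95, 0.51, 0.72, 1.06, 0.88 and 1.13 in APOE130-149 (0.76). The cause of these shifts was not tested. The count of members 1.5-fold higher in control peptide was 19 of 29 with a minimum of 5 CPM, where fewer genes are measured, 22 of 49 at 2-fold, and 30 to 40 under the other settings. No paired analysis was possible because each group is 1 library. The libraries' depth limits members under 100 UMIs, which are given by range alone.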
